A study of Mus musculus with 12 samples.

Results

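The mir-23/27/24 family of the mouse is encoded in a pair of clusters, and its 6 hairpin precursors were followed in small RNA sequencing libraries of sperm and of the TM4 cell line. The a cluster holds mmu-mir-23a, mmu-mir-27a and mmu-mir-24-2, and the b cluster holds mmu-mir-23b, mmu-mir-27b and mmu-mir-24-1, written without the species prefix in most of the text. They were taken by hairpin name from the miRNA annotation of every library, and are 6 of the 1050 miRBase hairpins that had a read in at least 1 library. Levels are reads per 1000000 miRBase miRNA reads of a library (CPM).

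Sperm came from the epididymis of C57BL6/J males fed a control diet (CD, 16% of energy from fat) or a high-fat diet (HFD). For HFD the labels give 69% of energy from fat, while the methods give another share for the same diet code. The diets were fed for 7 weeks from 4 weeks of age, while a figure caption of the authors gives another starting age. Each diet had 3 libraries, each pooled from the sperm of 3 mice. TM4 is a mouse line labelled as Sertoli cells, the somatic cells that support germ cells in the testis. It was sequenced without treatment (Ctrl), after 12 h with 10 µM Compound C (CC), an inhibitor of the energy sensor AMPK, and with overexpression (OE) of Ang from a plasmid. Ang encodes angiogenin, a ribonuclease that cuts tRNAs. Each TM4 group had 2 libraries. The same Ctrl libraries serve the CC and the Ang OE comparison, the labels name no empty-vector control, and they do not say whether TM4 replicates were separate cultures. P-values therefore measure the spread between these libraries, which may in part be technical.

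A hairpin is cut by Drosha and Dicer to a short duplex, from which usually 1 strand enters Argonaute and pairs through its seed with messenger RNAs. Hairpins of a cluster are transcribed together, yet their mature products can be processed and retained to different extents. miR-23, miR-27 and miR-24 are known from endothelial cells and blood vessel growth, and miR-27 is also known to restrain fat cell differentiation. The b cluster lies in Aopep, an aminopeptidase gene that is transcribed in many tissues.

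In the build GRCm38.p6, whose coordinates match the mm10 build named in the submitters' processing notes, the a cluster spans 404 bases on the plus strand at chr8:84208518-84208921, and the b cluster spans 792 bases on the plus strand at chr13:63300484-63301275. The hairpins of the a cluster are 79 and 56 bases apart, those of the b cluster 154 and 423. By the GENCODE M39 annotation (of GRCm39, matched by gene name), mir-23a and mir-27a lie in no annotated host gene, and mir-24-2 lies in an exon of the long non-coding RNA Gm26532 on the same strand. mir-23b lies in an intron of Aopep, while mir-27b and mir-24-1 overlap exons of some of its transcripts, all on the strand of Aopep, and Fancc, a DNA repair gene, runs opposite to all 3. Another annotated hairpin, mir-3074, lies opposite to each mir-24 hairpin. Its reads were few beside those of mir-24, between 11.5 and 33.5 per sperm library and between 61 and 329 per TM4 library for each of mir-3074-1 and mir-3074-2.

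The mature sequences from RefSeq show why the paralogs are hard to tell apart, with the seed (bases 2 to 8) in capitals. All 6 hairpins matched the table, with 10 distinct mature sequences.
mmu-miR-23a-3p: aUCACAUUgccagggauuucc
mmu-miR-27a-3p: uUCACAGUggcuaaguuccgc
mmu-miR-27b-3p: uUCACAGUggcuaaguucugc
mmu-miR-24-3p: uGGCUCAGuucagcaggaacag
mmu-miR-24-2-5p: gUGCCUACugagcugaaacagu
mmu-miR-24-1-5p: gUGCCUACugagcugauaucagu

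miR-27a-3p and miR-27b-3p have the same seed and differ by C19U, counted from the 5′ end with the base of miR-27a-3p first. miR-24-3p is the same molecule from both mir-24 hairpins, and no base differs over its 22 positions. Its seed also occurs in 4 other mature miRNAs of the table, miR-5124b, miR-6369, miR-6410 and miR-6413. The 5p arms of mir-24-2 and mir-24-1 share a seed and differ at their 3′ ends by A17U, C19U, A20C, G21A and U22G. The hairpins of mir-23a and mir-23b are given whole to show that the stretch of miR-23a-3p, in capitals, recurs in mir-23b with U19A as the only difference, counted within the stretch.
mmu-mir-23a: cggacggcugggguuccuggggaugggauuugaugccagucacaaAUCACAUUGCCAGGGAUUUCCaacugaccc
mmu-mir-23b: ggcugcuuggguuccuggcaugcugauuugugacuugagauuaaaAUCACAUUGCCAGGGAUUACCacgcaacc

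The authors' annotation pipeline allowed a mismatch and divided a read that matched several hairpins among them. Reads of miR-24-3p therefore could not be told apart by origin, and a read of miR-23 or miR-27 with an error at the differing base could be placed with the wrong paralog. Each of the 6 hairpins had fractional reads in 5 or 6 of the 12 libraries. How the pipeline treats a read that fits 1 paralog exactly and the other with a mismatch is not given in the sources used here, and its part in the values below was not tested. The tables count reads per hairpin and do not separate the 5p from the 3p arm.

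Libraries held 31710445 to 64038150 clean reads, of which 11412945 to 14822686 in sperm and 27651384 to 35704399 in TM4 cells were miRBase miRNA reads. The lowest read count of any of the 6 hairpins in any library was 2734.5. The sperm libraries had reads of 15 of 15 hairpins known from sperm and germ cells, with 3631 to 10782 CPM in all. They also had reads of all 7 epithelial hairpins (10517 to 15520 CPM in all) and all 7 of smooth muscle (30652 to 56169). All 4 of red blood (25239 to 50595) and all 5 of white blood (1286 to 2181) had reads too. In sperm mir-143 made up 30211 to 55754 CPM of the smooth muscle sum, and mir-145a was at most 442. There mir-133a-1 and mir-133a-2 were at most 23.4, and mir-145b, mir-1a-1 and mir-1a-2 at most 1.21. The part of other cells in the sperm levels was not tested. In the TM4 libraries mir-202, the only hairpin listed for Sertoli cells and gonad soma, stood at 0 to 0.178 CPM, against 4.86 to 59.8 in sperm, so the label of TM4 as a Sertoli line is not borne out by that hairpin. In TM4 cells epithelial hairpins summed to 2.79 to 5.20 CPM, white blood hairpins to 1248 to 1540, germ cell hairpins to 960 to 2067 and smooth muscle hairpins to 49715 to 129039. Each of the last 3 sums came mostly from 1 hairpin. mir-155 made up 1207 to 1486 CPM of the white blood sum, while mir-142a and mir-223, the defining ones, were at most 1.49 and 0.178. mir-34c made up 853 to 1956 CPM of the germ cell sum, while mir-741, mir-871 and mir-470 were at most 0.148, 0.593 and 0.689. mir-143 made up 48544 to 127843 CPM of the smooth muscle sum, while mir-133a-1 and mir-133a-2 were at most 0.416. Red blood hairpins summed to 1762 to 2857 CPM there, nearly all from mir-486a and mir-486b, while mir-451a and mir-144, the defining red blood hairpins, stayed below 1 CPM (at most 0.952 and 0.164). HFD replicate 1 stood apart from the other HFD libraries, since the chi-square over its degrees of freedom was 1138 and 1468 against them and 286 between those. It had the highest red blood sum of the sperm libraries (50595 CPM) and the lowest epithelial (10517) and smooth muscle sums (30652).

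In sperm, mir-27b was by far the most abundant of the 6 hairpins, and the b cluster had about an order of magnitude more reads than the a cluster. In TM4 cells the clusters had similar numbers of reads. Together the 6 hairpins made up 0.917% to 1.55% of the miRNA reads of a sperm library and 1.11% to 1.46% of those of a TM4 library. Fewer cells of a type and less RNA per cell cannot be told apart in these bulk libraries.

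**Figure D1:**
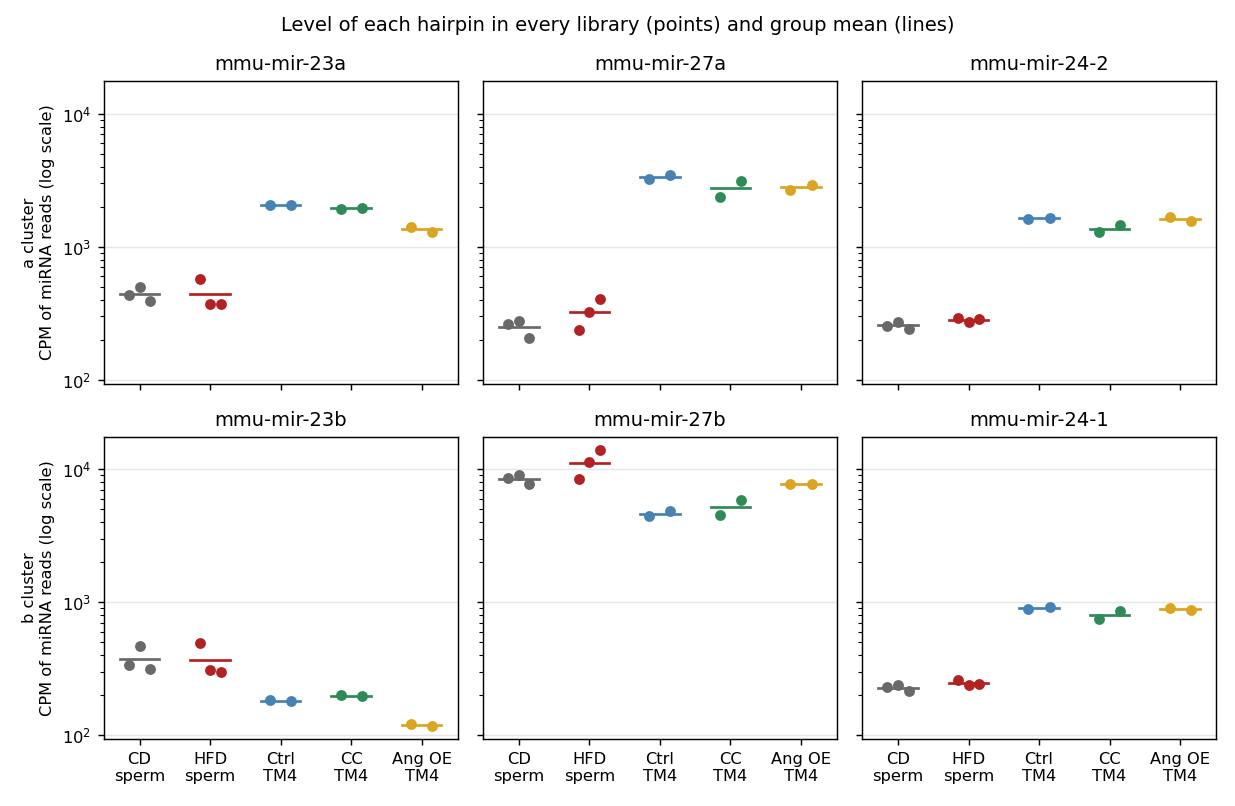
Level of each of the 6 hairpins in CPM of miRNA reads (log scale) in every library (points), with group means (lines), for sperm (CD and HFD, 3 libraries each) and TM4 cells (Ctrl, CC and Ang OE, 2 libraries each). The 3 hairpins of the a cluster and mir-24-1 are higher in every TM4 library than in any sperm library, mir-23b is lower in every TM4 library, and mir-27b in Ang OE (7725 and 7801 CPM) comes close to its lowest sperm library (7803 CPM).

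mmu-mir-27b stood at 8576, 9140 and 7803 CPM in the CD libraries, ranks 11 to 15 among all hairpins. In the same libraries mmu-mir-27a, its paralog with the same seed, stood at 264, 277 and 207 CPM. mir-27b was thus 32.5 to 37.8 times mir-27a in every sperm library. In TM4 Ctrl cells mir-27b stood at 4447 and 4847 CPM and mir-27a at 3254 and 3464 CPM, so that mir-27b was only 1.37 and 1.40 times mir-27a.

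mmu-mir-23a stood at 430, 495 and 392 CPM and mmu-mir-23b at 336, 468 and 316 CPM in the CD libraries. The ranges of these paralogs overlapped, although mir-23a was the higher in all 6 sperm libraries, by 1.06 to 1.28 times. In TM4 Ctrl cells mir-23a stood at 2051 and 2056 CPM, and mir-23b at 183 and 181 CPM. The excess of mir-23a was 9.57 to 11.6 times over the 6 TM4 libraries.

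mmu-mir-24-2 stood at 255, 273 and 239 CPM in the CD libraries, and mmu-mir-24-1 at 229, 240 and 213 CPM. In TM4 Ctrl cells they stood at 1629 and 1646 CPM and at 887 and 916 CPM. Since miR-24-3p reads are divided between both hairpins, the reads by which mir-24-2 exceeds mir-24-1 are a better guide to what was not shared, if the division was even. These were 346 to 634 reads in sperm libraries, 9.38% to 15.1% of the reads of mir-24-2, and 16414 to 26086 reads in TM4 libraries, 40.9% to 45.6%.

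Mature miRNAs of the family are 21 to 23 nt long, so reads were compared between hairpins without a correction for length, as an order of reads. In CD sperm the order of mean levels was mir-27b (8506 ± 671 CPM, SD, n = 3), mir-23a (439 ± 51.8), mir-23b (374 ± 82.7), mir-24-2 (256 ± 17.0), mir-27a (249 ± 37.6) and mir-24-1 (227 ± 13.2). Below mir-27b, mir-23a and mir-23b overlapped, as did mir-24-2, mir-27a and mir-24-1. In Ctrl cells the order was mir-27b (4647 ± 283 CPM, SD, n = 2), mir-27a (3359 ± 148), mir-23a (2054 ± 4.04), mir-24-2 (1638 ± 12.3), mir-24-1 (901 ± 20.2) and mir-23b (182 ± 1.84), with no overlap between neighbours. The order was the same in CC cells, while in Ang OE cells mir-24-2 (1623 ± 75.5 CPM) stood above mir-23a (1356 ± 86.3), again without overlap between neighbours.

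Within the b cluster mir-27b provided 91.8% to 96.2% of the reads of each sperm library and 80.6% to 88.7% of each TM4 library. mir-23b, its neighbour, provided 2.09% to 5.34% and 1.34% to 3.62%. The a cluster was more even. mir-23a led it in the CD libraries with 46.5% ± 1.04 (SD, n = 3) of the reads, and mir-27a led it in Ctrl cells with 47.6% ± 0.991 (SD, n = 2).

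**Figure D2:**
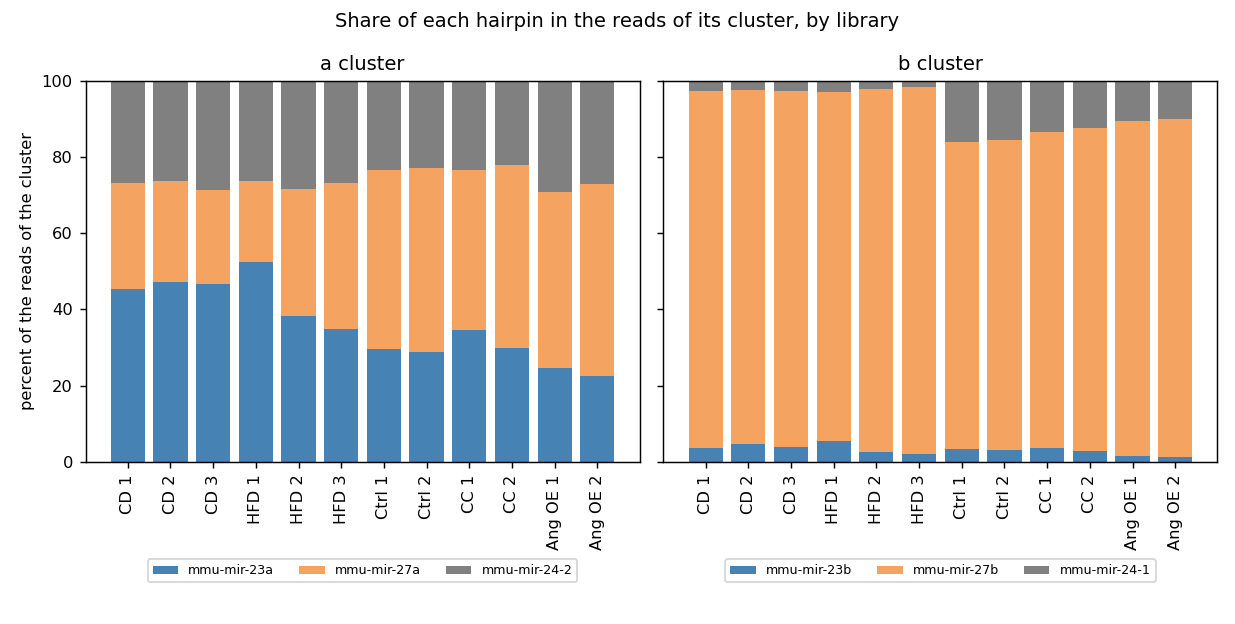
Percent of the reads of the a cluster (left) and of the b cluster (right) that came from each of its hairpins, 1 stacked bar per library. mir-27b fills 80.6% to 96.2% of the b cluster in all 12 libraries, whereas no hairpin of the a cluster exceeds 52.4%.

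The a cluster had 949, 1046 and 838 CPM in the CD libraries, against 9141, 9848 and 8333 CPM for the b cluster. Its log2 ratio to the b cluster was -3.27 ± 0.039 (SD, n = 3) in CD and -3.49 ± 0.36 in HFD sperm. For TM4 cells it came to 0.30 ± 0.042 (SD, n = 2) without treatment, -0.03 ± 0.059 with CC and -0.60 ± 0.0022 with Ang OE. The a cluster thus led in both Ctrl libraries, 1 CC library lay on either side of equal reads, and the b cluster led in both Ang OE libraries. The 3 TM4 groups did not overlap, but no test was made on these ratios. Without the mir-24 hairpins, whose reads are shared, the ratios were -3.69, -3.91, 0.17, -0.20 and -0.93 in the same order of groups, and both CC libraries then lay below equal reads.

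**Figure D3:**
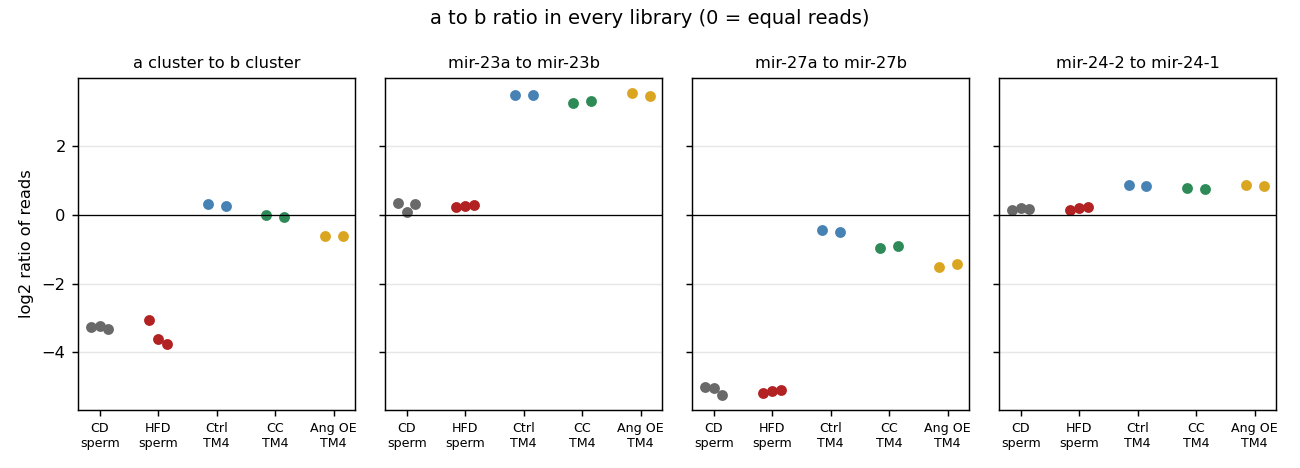
Log2 ratio of reads of the a cluster to the b cluster, and of each a hairpin to its b paralog, in every library (points), with 0 for equal reads. Sperm and TM4 libraries are separate in all 4 panels, and among the TM4 groups the ratio of mir-27a to mir-27b falls from Ctrl (-0.45 and -0.48) to CC (-0.96 and -0.90) and Ang OE (-1.53 and -1.42).

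Ctrl TM4 cells and CD sperm differ in cell type, in culture and in the number of libraries, which cannot be told apart, and most miRNAs differed between them. Of 590 hairpins tested, 455 passed an adjusted p under 0.05 by edgeR's quasi-likelihood test with TMM scaling, 77.1%, of which 36.4% of all were higher in TM4 cells and 40.7% lower. All 6 family hairpins were among them, 4 higher and 2 lower. mir-27a was higher in TM4 cells by 2.42 on the log2 scale (SE 0.15, edgeR adjusted p = 1.19e-06), followed by mir-24-2 (1.34), mir-23a (0.89) and mir-24-1 (0.65). mir-23b and mir-27b were lower, by -2.36 (SE 0.17, edgeR adjusted p = 2.40e-06) and -2.21 (SE 0.13, edgeR adjusted p = 9.09e-07). Without scaling beyond the miRNA reads the median of all hairpins moved from 0.13 to 1.47 and the calls from 215 higher and 240 lower to 342 and 194. The directions of the 6 hairpins were the same, with 3.75, 2.68, 2.23 and 1.99 for those higher and -1.04 and -0.87 for those lower. The sizes also moved when either Ctrl library was left out, where the filter kept 456 or 455 hairpins in place of 590. The cause of this move was not tested. All 6 sizes moved upward. Without Ctrl replicate 1 they were 3.36 for mir-27a, 1.79 for mir-23a, 2.25 for mir-24-2, 1.57 for mir-24-1, -1.47 for mir-23b and -1.25 for mir-27b, and without Ctrl replicate 2 they were 3.23, 1.75, 2.19, 1.49, -1.49 and -1.41. All of these passed the test. With paralogs added together, the mir-27 sum was lower in TM4 cells (-1.39, edgeR adjusted p = 0.000129), the mir-24 sum higher (1.13, edgeR adjusted p = 0.000542), and the mir-23 sum 0.20 (edgeR adjusted p = 0.385), all with TMM scaling. In CPM the mir-27 sums overlapped, with 7701 to 8311 in Ctrl cells and 8010 to 9418 in CD sperm, and the mir-23 sums did not, with 2234 to 2237 in Ctrl cells above 709 to 963 in CD sperm.

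The comparison of diets asked whether HFD changes the miRNAs that sperm carry. None of the 6 hairpins passed the test, and each had overlapping values between CD and HFD. mir-27b stood at 8501, 11284 and 13886 CPM in the HFD libraries, and mir-27a at 234, 324 and 407 CPM. HFD replicate 1, the library that stood apart, was the lowest for both, within the CD range, and the other HFD libraries were above every CD library. For the mir-23 paralogs the same library was the highest, with 576 CPM of mir-23a against 368 and 369 in the others, and 494 CPM of mir-23b against 310 and 301. The mir-24 hairpins varied least, with 289, 272 and 284 CPM of mir-24-2 and 262, 237 and 241 CPM of mir-24-1.

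The log2 fold changes of HFD against CD were 0.29 for mir-27b (SE 0.20), 0.26 for mir-27a (SE 0.23), 0.03 for mir-24-2, 0.01 for mir-24-1, -0.11 for mir-23a and -0.12 for mir-23b, each with an edgeR adjusted p of 0.989. Of all 451 hairpins tested, edgeR called 0 (0%), 31 had an unadjusted p under 0.05 (6.87%), and DESeq2 called 8. The groups did not overlap for 6.21% of all hairpins and for 0 of these 6. Without HFD replicate 1 the changes were 0.55 for mir-27b (edgeR adjusted p = 0.193), 0.53 for mir-27a (0.202), -0.26 for mir-23a (0.397) and -0.28 for mir-23b (0.398), and edgeR again called 0 hairpins. Without HFD replicate 3 the mir-27 changes were smaller, 0.20 for mir-27b and 0.15 for mir-27a (edgeR adjusted p = 0.997 for both), and over all 6 libraries left out in turn they lay between 0.20 and 0.55 for mir-27b and between 0.15 and 0.53 for mir-27a. The mir-27 sum stood at 0.29 (edgeR adjusted p = 0.988), and the ratio of mir-27a to mir-27b was alike in all 6 sperm libraries (2.65% to 3.08%).

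Within the clusters the HFD libraries were more spread than the CD libraries. mir-23a was 1.63, 1.78 and 1.90 times mir-27a in CD, but 2.46, 1.14 and 0.907 times in HFD. mir-23b was 3.92%, 5.12% and 4.05% of mir-27b in CD, and 5.81%, 2.75% and 2.17% in HFD. In both clusters HFD replicate 1 lay above the CD range and the other HFD libraries below it.

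Treatment of TM4 cells with CC, which asked for effects of AMPK inhibition, called none of the 6 hairpins. edgeR called 22 of 533 hairpins (4.13%), 12 higher and 10 lower, and 0 without CC replicate 1 or without CC replicate 2. mir-27a stood at 2347 and 3144 CPM in CC cells, below both Ctrl libraries, with a log2 fold change of -0.29 (SE 0.12, edgeR adjusted p = 0.228). It was -0.12 without CC replicate 1 and -0.50 without CC replicate 2, with edgeR adjusted p of 0.714 and 0.120. mir-24-2 stood at 1291 and 1450 CPM, with -0.25 (SE 0.099, edgeR adjusted p = 0.192), and mir-24-1 at 746 and 856 CPM, with -0.17 (edgeR adjusted p = 0.449). These 3 hairpins were below Ctrl in both libraries.

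mir-27b stood at 4575 and 5856 CPM in CC cells, which overlapped Ctrl, with a log2 fold change of 0.17 (edgeR adjusted p = 0.497). mir-23b, at 200 and 198 CPM, was above both Ctrl libraries by 0.13 (edgeR adjusted p = 0.603), and mir-23a, at 1915 and 1967 CPM, below both, with -0.08 (edgeR adjusted p = 0.783). The groups did not overlap for 5 of the 6 hairpins, where 47.1% of all hairpins did not overlap. mir-27a was 51.3% and 53.7% of mir-27b in CC cells, against 73.2% and 71.5% in Ctrl cells, and the mir-27 sum was -0.02 (edgeR adjusted p = 0.965).

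In Ang OE cells mir-27b rose while its neighbour mir-23b in the b cluster fell. In the a cluster mir-23a fell, and mir-27a, which has the seed of mir-27b, did not pass the test. edgeR called 204 of 533 hairpins between Ang OE and Ctrl cells (38.3%), 129 of them higher (24.2%) and 75 lower (14.1%). Of the 6 hairpins 4 were called, 2 in each direction, against a background in which calls were common.

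mir-27b stood at 7725 and 7801 CPM in Ang OE cells, against 4447 and 4847 in Ctrl cells. The groups were far apart, and the change was 1.01 on the log2 scale (SE 0.12, edgeR adjusted p = 3.30e-06), or 2.02-fold. It was called in each of 16 alternative fits, with 0.74 as the smallest change, found without scaling beyond the miRNA reads. Of all 533 hairpins, 64 had a higher log2 fold change. Some marker lists also changed, in both directions. The epithelial list had 0 calls among 4 tested hairpins. The white blood list had 1 call among 4, mir-155 (0.32, edgeR adjusted p = 0.0196), with a median of -0.11. The smooth muscle list summed to 94557 to 129039 CPM in Ang OE cells against 49715 to 55567 in Ctrl cells, with 2 of its 4 tested hairpins called higher, mir-143 (1.38) and mir-145a (0.40). The other 2, mir-133a-1 and mir-133a-2, both stood at -1.40 (edgeR adjusted p = 0.193), and the median of the list was -0.50 beside 0.06 over all. The germ cell list of 15 summed to 1964 to 2067 CPM against 1047 to 1090, with 4 of 6 tested hairpins called higher. They were mir-34c (1.26), mir-449a (0.88), mir-34b (0.55) and mir-871 (1.66). The last stood at only 0.402 to 0.593 CPM against 0.178 to 0.196. mir-470 (1.33) and mir-449c (-0.07) were not called, and the median of those tested was 1.07 beside 0.06 over all. The red blood list summed to 1762 to 1784 CPM against 2737 to 2857. Of its 3 tested hairpins, mir-486a and mir-486b were called lower (-0.38 each). Their levels were nearly the same (884 to 894 and 877 to 889 CPM in Ang OE cells), so these calls may not be separate. Without scaling beyond the miRNA reads 1 smooth muscle and 2 germ cell hairpins were called higher and 2 red blood hairpins lower. Without Ang OE replicate 2 there were 2 germ cell calls, and without Ang OE replicate 1 there was 1 smooth muscle call. The part of these lists in the changes of the family was not tested.

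mir-23b stood at 122 and 118 CPM in Ang OE cells, below 183 and 181 CPM in Ctrl cells. Its change was -0.33 (SE 0.11, edgeR adjusted p = 0.0283), and it failed the test without Ctrl replicate 1 (edgeR adjusted p = 0.0978), without Ctrl replicate 2 (0.156), without Ang OE replicate 2 (0.0518) and without a filter on low counts (0.111). As a ratio, which no scaling can move, mir-23b was 1.58% and 1.51% of mir-27b in Ang OE cells, 4.13% and 3.73% in Ctrl cells and 4.37% and 3.38% in CC cells. The values of mir-27b and mir-23b thus differed in direction, and no test was made on the ratio. Reads of mir-23a misplaced to mir-23b could enter its value, and their part was not tested.

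mir-23a stood at 1417 and 1295 CPM in Ang OE cells, below 2051 and 2056 CPM in Ctrl cells. Its change was -0.33 (SE 0.096, edgeR adjusted p = 0.0136), and it failed the test without Ctrl replicate 2 (edgeR adjusted p = 0.142) and without a filter (0.0519). Without scaling beyond the miRNA reads the changes were larger, -0.60 for both mir-23a (edgeR adjusted p = 0.000135) and mir-23b (edgeR adjusted p = 0.000304). mir-23a and mir-23b thus had similar changes, and no test compared them. mir-23a was 11.6 and 11.0 times mir-23b in Ang OE cells, against 11.2 and 11.4 times in Ctrl cells. The part of misplaced mir-23a reads in the change of mir-23b was not tested.

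mir-27a stood at 2674 and 2917 CPM in Ang OE cells, below 3254 and 3464 CPM in Ctrl cells. With TMM scaling its log2 fold change was 0.01 (SE 0.12, edgeR adjusted p = 0.946), and without scaling beyond the miRNA reads it was -0.26 (edgeR adjusted p = 0.0992), since that scaling moved the median of all hairpins from 0.06 to -0.21 and the calls to 81 higher and 139 lower. Relative to mir-27b it was 34.6% and 37.4% in Ang OE cells. The mir-27 sum rose by 0.61 (SE 0.12, edgeR adjusted p = 0.000140) and the mir-23 sum fell by 0.38 (edgeR adjusted p = 0.00482).

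mir-24-2 stood at 1676 and 1569 CPM in Ang OE cells, on either side of Ctrl (1629 and 1646). It was called with 0.26 (SE 0.099, edgeR adjusted p = 0.0480), yet was called in only 4 of 17 alternative fits and turned to -0.013 without scaling. The call was lost without either Ctrl library, without either Ang OE library and without CC replicate 1, with edgeR adjusted p from 0.0938 to 0.307. mir-24-1, at 912 and 879 CPM, had 0.26 (edgeR adjusted p = 0.0523) and turned to -0.0095 in the same way. It was called in 3 of 17 alternative fits, with edgeR adjusted p of 0.0173 with ComBat-seq, 0.0190 with crossed replicate numbers and 0.0430 without CC replicate 2. With both added, the mir-24 sum stood at 0.20 (edgeR adjusted p = 0.135). The groups did not overlap for 4 of the 6 hairpins, where 70.4% of all hairpins did not overlap.

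**Figure D4:**
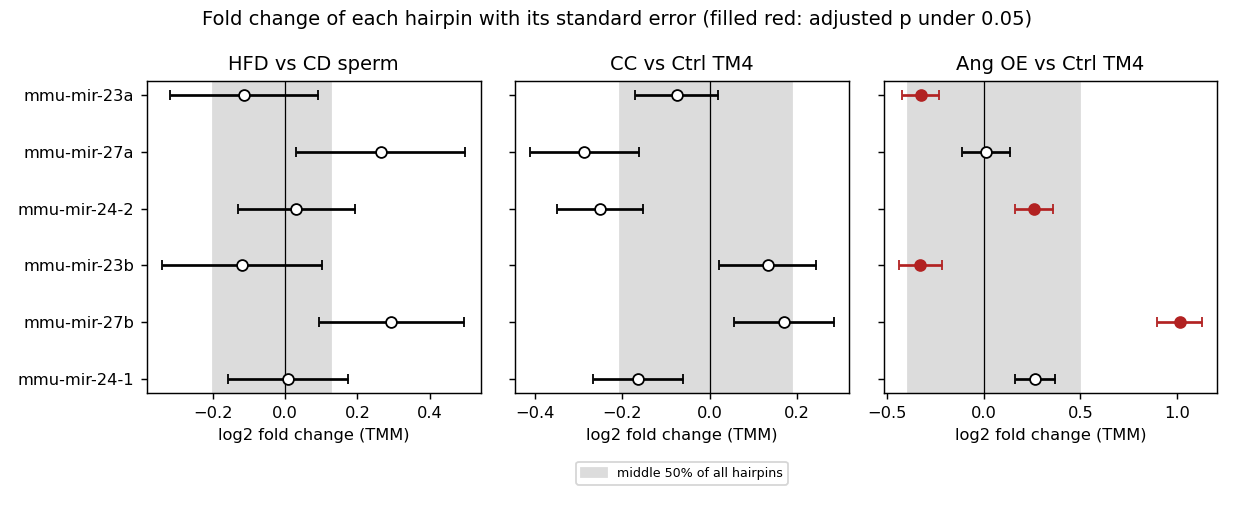
Log2 fold change with its standard error for the 6 hairpins in HFD against CD sperm, CC against Ctrl and Ang OE against Ctrl TM4 cells, from edgeR with TMM scaling. Filled red points passed an adjusted p under 0.05, and the grey band holds the middle 50% of all hairpins tested. mir-27b in Ang OE (1.01) is the only called point outside the band, and the mir-24-2 call held in 4 of 17 alternative fits.

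Ang OE was also set against CC cells, where edgeR called 221 of 533 hairpins (41.5%, with 26.3% higher and 15.2% lower). Without scaling beyond the miRNA reads the calls turned from 140 higher and 81 lower to 83 and 143, and the median of all hairpins moved from 0.07 to -0.20. mir-27b was higher in Ang OE cells by 0.84 (SE 0.12, edgeR adjusted p = 1.72e-05), and mir-24-2 and mir-24-1 by 0.51 (edgeR adjusted p = 0.000520) and 0.43 (edgeR adjusted p = 0.00297). mir-23b was lower, by -0.46 (edgeR adjusted p = 0.00314), and mir-23a by -0.25 (edgeR adjusted p = 0.0470), while mir-27a stood at 0.30 (edgeR adjusted p = 0.0637) and was called in 5 of 14 alternative fits. It was 0.082 without CC replicate 1 (edgeR adjusted p = 0.633), 0.18 without Ang OE replicate 2 (edgeR adjusted p = 0.349), 0.51 without CC replicate 2 (edgeR adjusted p = 0.0119) and 0.026 without scaling beyond the miRNA reads. The mir-24 calls were lost without scaling beyond the miRNA reads, and that of mir-23a in 7 of 14 alternative fits, among them those without either Ctrl library, either CC library or Ang OE replicate 2. The call of mir-24-1 was also lost without CC replicate 1 (edgeR adjusted p = 0.0560) and with clean reads without rRNA as library size (edgeR adjusted p = 0.0845).

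Other hairpins known from endothelial cells and blood vessel growth were taken from a list of 15, of which 14 could be tested. In sperm 0 were called between the diets by edgeR. In CC against Ctrl cells 1 was called, mir-132 (0.65, edgeR adjusted p = 0.0190), beside 4.13% of all hairpins. That call was lost without CC replicate 1, CC replicate 2 or Ctrl replicate 1 (edgeR adjusted p = 0.208, 0.170 and 0.129) and with ComBat-seq (0.0510). In Ang OE against Ctrl cells 4 rose and 5 fell, with a median of -0.12 beside 0.06 over all hairpins, of which 24.2% were called higher and 14.1% lower. The 4 that rose were mir-210, a hypoxia-responsive hairpin (1.44), mir-126a, an endothelial hairpin (1.25), and mir-19a (1.09) and mir-20a (0.48) of the mir-17/92 cluster. The 5 that fell were mir-296 (-0.97), mir-132 (-0.73), mir-92a-1 (-0.68), which is of the mir-17/92 cluster too, and the neighbours mir-222 (-0.61) and mir-221 (-0.32). Without scaling beyond the miRNA reads 3 were called higher and 8 lower, with a median of -0.39 beside -0.21 over all hairpins, of which 15.2% were called higher and 26.1% lower. mir-20a lost its call there (0.21, edgeR adjusted p = 0.163) and without Ang OE replicate 1, and mir-221 lost its call without either Ctrl library (edgeR adjusted p = 0.0812 and 0.115). Called hairpins of the mir-17/92 cluster thus went in both directions, while mir-17, mir-18a and mir-19b-1 of that cluster were not called with TMM scaling. In Ctrl cells against CD sperm 11 of the 14 were higher and 2 lower, with a median of 1.62 beside 0.13 over all hairpins, of which 36.4% were called higher and 40.7% lower. Without scaling beyond the miRNA reads 12 were higher and 2 lower, beside 58% and 32.9% of all hairpins.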

How the data were processed

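Small RNA libraries were made from 6 sperm pools and 6 TM4 samples. The authors checked reads with FastQC (0.12.0), trimmed them with Trimmomatic (0.40) and annotated them with SPORTS1.1, which allowed a mismatch and took rRNA, tRNA and then miRNA databases. The submitters' processing notes name mm10. The deposited values are estimated counts, not normalized, since reads matching several subclasses were divided among them. Members, lists and tests were chosen with earlier results of these data known.

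Reads with and without a genome match were added per miRBase hairpin with Python 3.11.15, pandas 2.3.3 and numpy 2.4.6. Rounded counts were tested with edgeR 4.0.16 (quasi-likelihood, TMM) in R 4.3.3. Sperm groups, all 3 TM4 groups, and CD with Ctrl were fitted as 3 separate models. Hairpins had to reach 10 reads in 3 or more libraries in the sperm model and in 2 or more in the TM4 model. In the model of CD with Ctrl any 2 or more of its libraries were enough. Calls needed a Benjamini-Hochberg adjusted p under 0.05. Likeness of profiles was the root mean square difference of centred log2(CPM + 1) over 12 libraries. Alternatives were DESeq2 1.42.0, other library sizes and filters, genome-matched reads alone, added paralogs, a replicate block, each library left out, models of the compared groups alone, and ComBat-seq (sva 3.50.0). Their counts within the lists were added after seeing the data. Hairpins named are the 6 family members, their 3 nearest profiles each, the called members of the angiogenesis list and, chosen after their values were seen, hairpins of the marker lists and the antisense mir-3074 hairpins. Figures were drawn with matplotlib 3.10.9.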

Additional observations from a re-analysis of the deposited data

How the results depend on the processing

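Of 98 comparisons of a family hairpin with its main value in Ang OE against Ctrl cells, 66 kept their direction and side of the threshold, as did 96 of 98 in CC against Ctrl, 72 of 80 in HFD against CD, 70 of 86 in Ang OE against CC and all 74 in Ctrl against CD. The mir-23 and mir-27 hairpins have no value of their own with paralogs added. Genome-matched reads alone left the reads of the 6 hairpins as they were. HFD against CD had 8 calls by DESeq2, 1 higher and 7 lower. CC against Ctrl had 35 calls with ComBat-seq and 0 to 26 when each library was left out in turn. The ratio of the a to the b cluster moved to -3.69 (CD), -3.91 (HFD), 0.17 (Ctrl), -0.20 (CC) and -0.93 (Ang OE) without the mir-24 hairpins, and that of CC was -0.075 without CC replicate 1 and 0.0082 without CC replicate 2. Leaving out a library leaves 1 group of TM4 cells with 1 library, which is assumed to vary like the others.

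Signs turned for changes near 0. In HFD against CD, with clean reads without rRNA as library size, mir-23a came to 0.071 and mir-23b to 0.057. With a library left out, mir-23a lay between -0.26 and 0.056, mir-23b between -0.28 and 0.067, mir-24-2 between -0.0065 and 0.16 and mir-24-1 between -0.039 and 0.15. mir-27b in CC lay between -0.0083 and 0.31 in the same way. mir-27a in Ang OE against Ctrl came to -0.056 by DESeq2, -0.26 without scaling, -0.14 with clean reads as library size, -0.10 with at least 100 reads, -0.042 in a model of both groups alone, -0.0065 with ComBat-seq, and -0.11 to 0.087 with a library left out. mir-24-2 came to -0.013 and mir-24-1 to -0.0095 without scaling. Beyond alternatives whose own construction changes the libraries or hairpins in the fit, the cause was not tested.

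The authors report that they adjusted their cell line data with ComBat-seq for batch effects from sample preparation, without naming the batches. Nothing in the labels pairs same-numbered replicates, and the data gave no common sign. The correlations of their deviations over 302 hairpins were -0.15, -0.28 and 0.0040 for CD with HFD, -0.04 for Ctrl with CC, -0.14 for Ctrl with Ang OE and 0.31 for CC with Ang OE. With the replicate number as a block, CC against Ctrl had 35 calls, HFD against CD 0 and Ang OE against Ctrl 222. The edgeR adjusted p of mir-24-2 in Ang OE against Ctrl was then 0.0580. Ang OE against CC had 243 calls with the block, where mir-23a lost its call (edgeR adjusted p = 0.0671) and mir-27a gained one (0.0217). With Ctrl numbers crossed, an alternative chosen after seeing the data, CC had 55 calls, mir-27a among them, and Ang OE 229.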

Other observations

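The hairpins with the profile most like that of a family hairpin over the 12 libraries were not from the family. These likenesses are descriptions over 6 sperm and 6 TM4 libraries, in which the difference between sperm and cells dominates. The 3 nearest to mir-23a were mir-361 (root mean square difference 0.13 on the log2 scale), mir-25 (0.15) and mir-423 (0.17), and to mir-24-2 they were mir-199b (0.12), mir-28a (0.17) and mir-378a (0.18). mir-27a was nearest to mir-199a-2 (0.21), mir-199a-1 (0.21) and mir-30e (0.29). mir-23b was nearest to mir-99a (0.27), mir-181a-2 (0.28) and mir-181a-1 (0.29), and mir-27b to let-7f-2 (0.30), mir-34c (0.32), a hairpin of the germ cell list, and mir-1839 (0.33). mir-24-1 was nearest to mir-130a, mir-22 and mir-145a. Between neighbours of the same cluster the difference was 0.79 for mir-23a and mir-27a, 0.49 for mir-27a and mir-24-2, 0.60 for mir-23b and mir-27b, and 1.34 for mir-27b and mir-24-1. The values of the mir-24 hairpins hold shared reads of miR-24-3p.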
